A study of Homo sapiens with 12 samples.

Results

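The genes described are 50 that license DNA replication origins in G1 and that build and run the replication fork in S phase. They were chosen by name, from the known roles of their products, with earlier results of these data known. Each was found in the table of 23434 human genes. Newly made RNA was measured by EU-seq, in which cells take up 5-ethynyl-uridine (EU) for a short pulse and the RNA that contains it is tagged with biotin, captured on beads and sequenced. The cells were U2OS, a human osteosarcoma line, carrying MycER, a fusion of MYC with the hormone-binding part of the oestrogen receptor that 4-hydroxytamoxifen (OHT) switches on. They had been infected with virus for a non-targeting shRNA (shNT) or an shRNA against CDK12 (shCDK12), a kinase that acts on elongating RNA polymerase II, and the design compared OHT with no OHT under each shRNA. There were 12 libraries, 3 in each of 4 groups.

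All 4 groups carried MycER and all received doxycycline at 1 µg/mL to switch on the shRNA, so no group was without doxycycline. The shNT+OHT and shCDK12+OHT groups received OHT at 300 nM for 40 h, and the shNT and shCDK12 groups did not. All cells were then held in mitosis with nocodazole at 100 ng/mL for 8 h, shaken off, washed and released for 12 h, with EU at 0.5 mM for the last 2 h. By this protocol the libraries describe cells released from mitosis together and taken at a single time. How well each group was synchronized is not shown by these data. The labels do not say how many shRNA sequences or clones were used, nor whether the 3 libraries of a group came from separate cultures, so p-values measure the spread between these libraries, which may be technical. From each sample, 40 µg of human RNA had been mixed with 10 µg of labelled mouse RNA, but the table has no mouse rows, so each value is relative to the other genes of its library and says nothing of how much RNA the cells made in all.

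Origins are licensed when the origin recognition complex (ORC), CDC6 and CDT1 load the ring-shaped MCM helicase onto DNA, and geminin, the product of GMNN, blocks CDT1 once S phase has begun. The DBF4-dependent kinase CDC7, with TICRR (treslin) and RECQL4, then brings CDC45 and the GINS complex to the helicase and so starts it. At the fork, DNA polymerase alpha with primase lays primers, polymerases epsilon and delta extend the leading and lagging strands, RFC loads the PCNA clamp, RPA coats single-stranded DNA, FEN1 and LIG1 join Okazaki fragments, and TIMELESS, TIPIN and WDHD1 hold the moving machinery together. Many of these genes are transcribed under the control of E2F factors around the entry into S phase, and several are known targets of MYC.

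The targeted gene was examined first. CDK12 stood at 323, 289 and 300 CPM (counts scaled to library size, with edgeR's TMM factors) in the shNT libraries, 434, 356 and 400 in shNT+OHT, 293, 277 and 298 in those labelled shCDK12, and 215, 208 and 218 in those labelled shCDK12+OHT. Without OHT the level in the libraries labelled shCDK12 overlapped that of shNT, and the difference did not pass the test (log2 fold change -0.08), whereas with OHT all 3 libraries labelled shCDK12+OHT lay below all others. An shRNA acts on messenger RNA after it has been made. The protein was not measured here, so the knockdown was not checked and the groups are named as the labels name them. MYC itself stood at 2221, 2044 and 2013 CPM in shNT, 2199, 1706 and 1997 in shNT+OHT, 1214, 1035 and 1122 in the libraries labelled shCDK12, and 2091, 2095 and 2000 in shCDK12+OHT. The libraries labelled shCDK12 were thus the lowest for MYC, with no overlap with the other groups, and the reads of MycER and of the cell's own MYC cannot be told apart.

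The cell type was checked on genes of bone-forming and mesenchymal cells, of which FN1, RUNX2, SPARC, COL1A1 and VIM were detected in every library, with COL1A2 at or near 0. Their summed level was not the same in the groups, at 1545 ± 42.3 CPM (SD, n = 3) in shNT, 1033 ± 57.3 in shNT+OHT, 405 ± 5.76 in the libraries labelled shCDK12 and 569 ± 9.20 in shCDK12+OHT. The most abundant of them in shNT, FN1 (fibronectin), stood at 656, 653 and 669 CPM there and at 41.0, 35.2 and 38.5 CPM in the libraries labelled shCDK12. Markers of blood, epithelial, liver and endothelial cells summed to between 9.52 and 16.1 CPM in every library. Within that sum EPCAM stood at 0.70, 1.76 and 0 CPM in shNT and 7.87, 9.55 and 6.66 in the libraries labelled shCDK12, and CDH1 at 9.57 ± 1.29 CPM (SD, n = 3) in shNT and 6.10 ± 2.28 in the libraries labelled shCDK12. The part of these differences in the results below was not tested.

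Counts per library ran from 1251695 in shNT+OHT replicate 2 to 10447836 in shCDK12+OHT replicate 2, an 8.35-fold range. The shNT and shNT+OHT libraries, at most 5227279, were mostly shallower than those with shCDK12, and a single member had between 7 counts (POLE2 in shNT+OHT replicate 2) and 3790 counts (POLE3 in shCDK12 replicate 2). Libraries of 1 group correlated at between 0.927 and 0.994 (Pearson, log2 CPM across genes, which are not independent replicates) and libraries of different groups at between 0.839 and 0.947. The ranges overlapped, as shNT+OHT replicate 2 correlated at 0.947 with shNT replicate 2 and at 0.927 with shNT+OHT replicate 1. The 50 genes together took 0.397%, 0.390% and 0.395% of all counts in shNT, 0.423%, 0.408% and 0.414% in shNT+OHT, 0.517%, 0.506% and 0.506% in the libraries labelled shCDK12, and 0.349%, 0.357% and 0.354% in shCDK12+OHT. The 4 groups did not overlap, with shCDK12 highest and shCDK12+OHT lowest. In bulk libraries, fewer cells in a phase and less RNA per cell cannot be told apart.

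**Figure D1:**
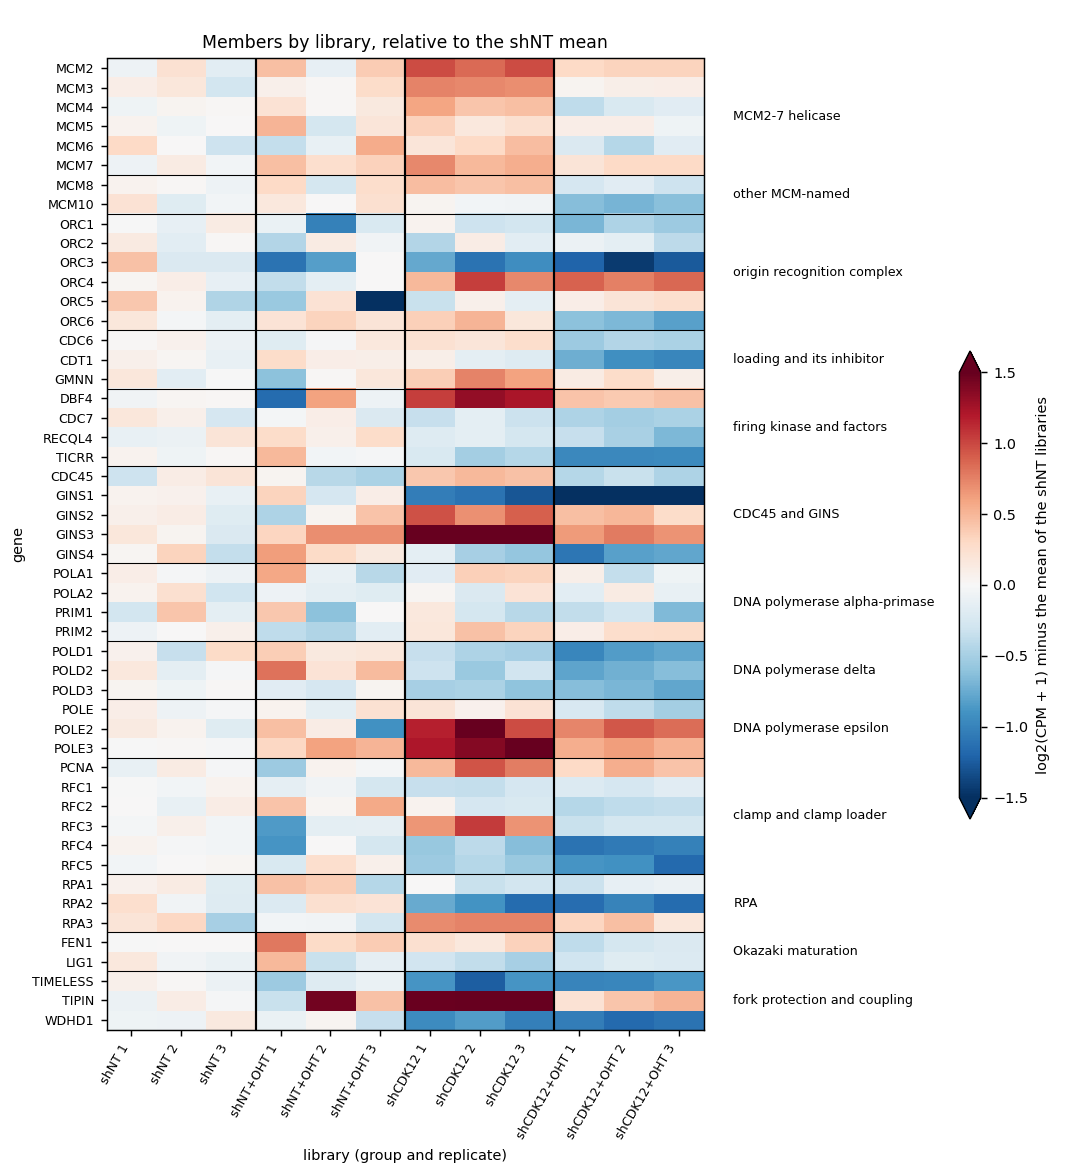
Each of the 50 genes (rows, grouped by role) in each of the 12 libraries (columns, 3 per group), coloured by log2(CPM + 1) minus the mean of the 3 shNT libraries, with red above and blue below and the scale ending at 1.5 in both directions. Most rows are redder in shCDK12 than in shCDK12+OHT, the rows of polymerase delta are blue in both, and the shNT+OHT libraries differ among themselves for DBF4, ORC5 and TIPIN.

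With shNT, OHT moved few of these genes. GINS3, POLD2, FEN1, POLE3 and MCM7 rose, between 1.27-fold and 1.47-fold, and none fell. In the comparison of shNT+OHT with shNT, 9.05% of the 10272 genes tested were higher, 8.29% lower and 17.3% either, at an adjusted p under 0.05 (quasi-likelihood test of edgeR, Benjamini-Hochberg method). The 5 genes were 10.2% of the 49 members tested (POLE2 was under the count minimum), near the 9.05% of all genes. The median log2 fold change of the members was 0.06, against -0.03 for all genes tested.

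GINS3, a subunit of the GINS ring that CDC45 and the helicase need, stood at 106, 97.2 and 81.2 CPM in shNT and at 118, 153 and 153 in shNT+OHT (log2 fold change 0.56 ± 0.15 SE, adjusted p = 0.023). POLE3, a histone-fold subunit of polymerase epsilon, stood at 152, 156 and 151 CPM in shNT and at 190, 233 and 219 in shNT+OHT (0.48 ± 0.13, adjusted p = 0.019). FEN1, the nuclease that trims Okazaki fragments, stood at 220, 222 and 223 CPM in shNT and at 383, 271 and 289 in shNT+OHT (0.51 ± 0.14, adjusted p = 0.020). In each of these the groups did not overlap, and shNT+OHT replicate 1 was the lowest of its group for GINS3 and POLE3 and the highest for FEN1. POLD2, a subunit of polymerase delta, stood at 103, 83.3 and 91.2 CPM in shNT and at 163, 106 and 128 in shNT+OHT (0.53 ± 0.17, adjusted p = 0.042). MCM7, of the helicase, stood at 267, 307 and 273 CPM in shNT and at 385, 337 and 358 in shNT+OHT (0.35 ± 0.11, adjusted p = 0.046), and its call was not made with a replicate block, with either other filter or after thinning. Both groups again did not overlap, and POLD2 in the lowest shNT+OHT library was only just above the highest shNT library. These calls depended on some of the libraries: no member was called without shNT replicate 1, 2 or 3 (adjusted p up to 0.21), and only FEN1 was called without shNT+OHT replicate 3. All 5 were still called without shNT+OHT replicate 1 or without replicate 2.

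All 6 genes of the MCM2-7 helicase had positive values with OHT, from 0.07 in MCM6 to 0.35 in MCM7, and only MCM7 passed. MCM6 took a negative value under 2 of 14 alternatives (lowest -0.27). The licensing factors CDC6 (-0.01), CDT1 (0.15) and GMNN (-0.13), the largest ORC subunit ORC1 (-0.35), CDC45 (-0.27), PCNA (-0.17) and LIG1 (0.07) did not pass. Some members varied widely within shNT+OHT. DBF4, the activating subunit of the kinase, stood at 54.5, 186 and 116 CPM there against 118, 125 and 124 in shNT, and TIPIN at 16.3, 58.6 and 28.4 against 19.4, 22.4 and 20.5. Replicate 2 was the highest for both genes and replicate 1 the lowest, on both sides of the shNT libraries, and a change of either gene with OHT was not detectable.

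With shCDK12, most of these genes were lower with OHT, relative to the other genes of each library. Of the 50, 32 fell and none rose, and the falls reached every role except the 4 genes of polymerase alpha and primase. For RPA this rests on RPA3 alone, whose call was not made in 5 of 13 alternatives (adjusted p up to 0.11). In the comparison of shCDK12+OHT with shCDK12, 21.5% of 12519 genes were lower, 27.5% higher and 48.9% either. The balance of all genes depended on the scaling, with 56.2% of calls higher here and 47.8% with upper-quartile scaling, and under each scaling no member was called higher. The members lower were 64% of the members tested, and their median log2 fold change was -0.43, against 0.05 for all genes. In 31 of the 32 the groups did not overlap, as in 95.7% of all genes called. Of the 32, 19 were called higher in shCDK12 than in shNT, 7 lower and 6 not called. That comparison shares the shCDK12 libraries with this one, and the same count over all genes was not made.

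**Figure D2:**
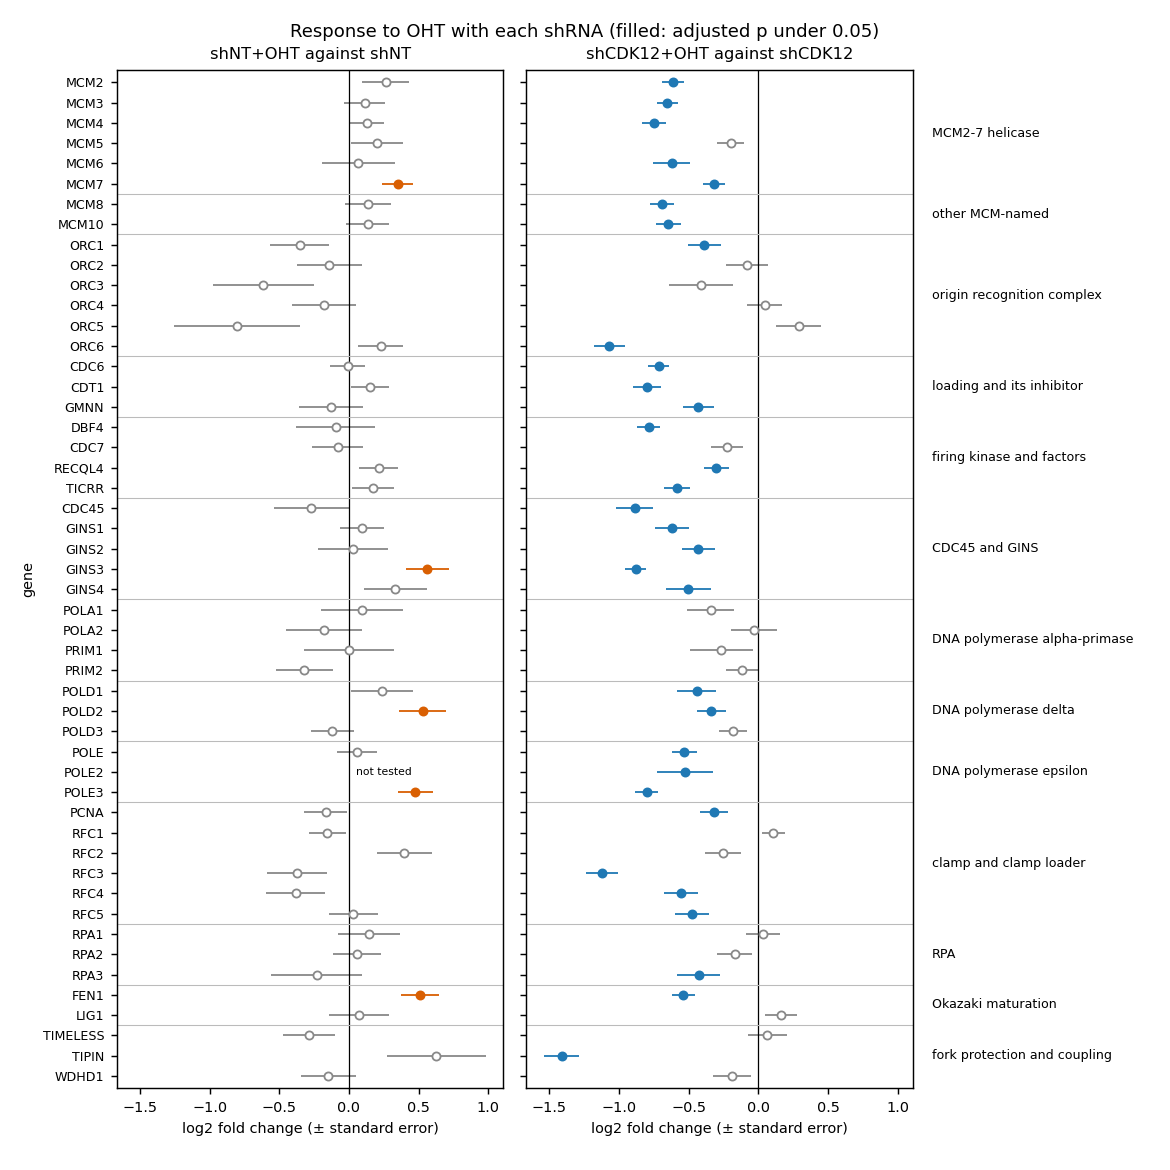
Log2 fold change with OHT (x axis, bars are the standard error) of each of the 50 genes (y axis, by role), with shNT on the left and with shCDK12 on the right, where a filled point passed an adjusted p of 0.05, orange for higher and blue for lower. On the left 5 points are orange and none is blue, and on the right 32 are blue and none is orange, TIPIN at -1.41 being the lowest.

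Within the helicase, MCM2, MCM3, MCM4, MCM6 and MCM7 fell and MCM5 (-0.20 ± 0.09, adjusted p = 0.090) did not pass. MCM4 stood at 242, 215 and 219 CPM in shCDK12 and at 123, 137 and 142 in shCDK12+OHT (log2 fold change -0.75 ± 0.08, adjusted p = 1.3e-06). MCM2 stood at 193, 176 and 193 CPM and at 120, 124 and 123 in the same groups (-0.61 ± 0.08, adjusted p = 6.4e-06). The 3 OHT libraries lay close together and below all 3 without OHT for both genes. MCM8, a helicase of recombination and not of licensing, and MCM10, a fork protein outside the ring, also fell, by 0.69 and 0.65 on the log2 scale.

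All 3 genes of helicase loading and its brake fell. CDT1 stood at 121, 103 and 99.6 CPM in shCDK12 and at 68.1, 59.9 and 57.3 in shCDK12+OHT (-0.80 ± 0.10, adjusted p = 5.6e-06). CDC6 stood at 255, 246 and 262 CPM and at 148, 160 and 156 (-0.72 ± 0.08, adjusted p = 6.5e-07), and GMNN moved less (-0.43 ± 0.11, adjusted p = 0.0040). The call for GMNN was not made after thinning (adjusted p = 0.058). The loader CDT1 and its inhibitor geminin thus fell together, without overlap between the groups. In the ORC, which stays largely constant through the cycle except for ORC1, only ORC6 and ORC1 fell. ORC6 stood at 78.7, 87.2 and 69.0 CPM and at 39.7, 37.8 and 34.5 (-1.07 ± 0.11, adjusted p = 4.5e-07), so the highest OHT library was far under the lowest without OHT. ORC1 stood at 64.8, 50.4 and 51.4 CPM and at 38.3, 45.0 and 42.6 (-0.39 ± 0.12, adjusted p = 0.011), and did not pass without shCDK12+OHT replicate 1 (adjusted p = 0.070).

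Among the factors that start the helicase, DBF4, TICRR and RECQL4 fell and CDC7 (-0.23 ± 0.11, adjusted p = 0.11), the catalytic subunit paired with DBF4, did not pass. The call for RECQL4 was not made in 2 of 14 alternatives, after thinning (adjusted p = 0.17) and without shCDK12+OHT replicate 3. DBF4 stood at 251, 306 and 288 CPM in shCDK12 and at 164, 161 and 166 in shCDK12+OHT (-0.79 ± 0.08, adjusted p = 5.9e-07). CDC45 and all 4 GINS genes were called lower, by between 0.43 (GINS2) and 0.89 (CDC45) on the log2 scale, the call for GINS4 not being made in 3 of 13 alternatives (adjusted p up to 0.080). CDC45 stood at 31.3, 33.3 and 32.2 CPM and at 17.1, 18.3 and 16.7 (-0.89 ± 0.13, adjusted p = 2.7e-05). GINS3 stood at 289, 273 and 287 CPM and at 147, 163 and 151 (-0.88 ± 0.08, adjusted p = 6.7e-08). Both groups were tight for these genes and well apart.

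Of the polymerases, the 3 members of epsilon were called lower (POLE3 -0.80, POLE -0.53, POLE2 -0.53), while POLE4, the other epsilon gene measured and not one of the 50, did not pass (-0.16). Of delta, POLD1 (-0.44) and POLD2 (-0.34) were called lower and POLD3 (-0.18) did not pass. The call was not made in 4 of 14 alternatives for POLD2 (adjusted p = 0.14 after thinning) and in 2 of 13 for POLD1. That for POLE2 was not made in 6 of 13, among them DESeq2 and each fit without a shCDK12+OHT library, and its value reached -0.25 without shCDK12 replicate 2 (adjusted p = 0.34). No gene of polymerase alpha and primase passed, with values from -0.34 in POLA1 to -0.03 in POLA2. PCNA stood at 250, 344 and 304 CPM in shCDK12 and at 220, 262 and 241 in shCDK12+OHT (-0.32 ± 0.10, adjusted p = 0.013). It was the called gene whose groups overlapped, and it did not pass without shCDK12+OHT replicate 1 (adjusted p = 0.087). Of the clamp loader, RFC3 fell furthest, from 77.4, 102 and 78.5 CPM to 38.4, 40.4 and 40.5 (-1.12 ± 0.11, adjusted p = 4.0e-07). RFC4 and RFC5 fell too, and RFC1, the large subunit particular to this loader, had a value of 0.11 and RFC2 of -0.25, neither past the test. The call for RFC4 was not made after thinning (adjusted p = 0.064). TIPIN, which pairs with TIMELESS at the fork, fell from 59.8, 80.3 and 77.2 CPM to 24.3, 28.1 and 29.9 (-1.41 ± 0.13, adjusted p = 8.4e-08). Its partner TIMELESS stood at 26.6, 20.8 and 26.6 CPM and at 24.7, 24.9 and 27.0 (0.06 ± 0.14, adjusted p = 0.73), with overlapping groups. FEN1 fell (-0.54) and LIG1, which seals the nick that FEN1 leaves, did not pass (0.16).

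The OHT response was then compared between the shRNAs by the interaction term of a fit of all 12 libraries, in which 19.6% of 11699 genes were called lower (a lower response with shCDK12), 25.6% higher and 45.2% either. Of all calls 56.6% were higher here and 47.2% with upper-quartile scaling. Of the 50 genes, 23 were called lower and 1 higher, with a median of -0.52 on the log2 scale against 0.10 for all genes. The 5 genes that rose with OHT in shNT (GINS3, POLE3, FEN1, POLD2 and MCM7) all fell with OHT in shCDK12, in comparisons that share no library. The same held for 74.2% of the 930 genes that rose in shNT. The 5 were picked by a rise that is part of the interaction, so their interactions are given as values with no test, at -1.44 ± 0.17 for GINS3, -1.28 ± 0.14 for POLE3, -1.05 ± 0.16 for FEN1, -0.88 ± 0.20 for POLD2 and -0.67 ± 0.14 for MCM7. TIPIN had the lowest value (-1.97 ± 0.38, adjusted p = 0.00028), with the wide spread in shNT+OHT given above, followed by ORC6 (-1.29 ± 0.19, adjusted p = 1.7e-05) after GINS3. MCM2 (-0.88), MCM3 (-0.76), MCM4 (-0.88), CDT1 (-0.95) and CDC6 (-0.71) were also called. ORC5, the gene called higher (1.17 ± 0.47, adjusted p = 0.049), rested on 9.71, 17.3 and 3.19 CPM in shNT+OHT and did not pass in 12 of 18 alternatives, among them DESeq2, both other scalings and 8 fits that left out a library (adjusted p up to 0.17). PCNA (-0.15), ORC1 (-0.07), GMNN (-0.30), LIG1 (0.08), CDC45 (-0.63), MCM5 (-0.42) and MCM6 (-0.69) did not pass. Among the alternatives MCM6 was called in 6 of 19, CDC45 in 5 of 18, MCM5 in 2 of 19 and GMNN in 1 of 19.

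The stretches of DNA before the transcription start are printed for 3 of the genes that rose with OHT in shNT and for the 3 with the largest falls in shCDK12, because they differ in the short letter patterns they hold. The 3 that rose (MCM7, FEN1 and POLD2) were picked after their values were seen and leave out GINS3 and POLE3, whose interaction values were lower still. All 3 also fell with OHT in shCDK12, so the 2 sets are not risers against fallers. The sequences are from RefSeq (GRCh38.p14, not the build named for the counts), are the 150 bases that end at the base before the start, and are written 5′ to 3′ along the gene. Capitals mark matches on either strand to CACGTG (the E-box that MYC with MAX binds), TTTNNCGC (a pattern of E2F sites, N being any base) and CCAAT (the box bound by NF-Y), and no printed match overlaps another. They lie at chr7:100101398-100101547 (minus strand), chr11:61792761-61792910 (plus), chr7:44123549-44123698 (minus), chr16:46689509-46689658 (plus), chr13:33817999-33818148 (plus) and chr15:66386718-66386867 (minus).
MCM7: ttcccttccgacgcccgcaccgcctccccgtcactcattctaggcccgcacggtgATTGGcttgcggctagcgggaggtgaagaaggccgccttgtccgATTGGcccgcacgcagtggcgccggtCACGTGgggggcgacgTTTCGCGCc
FEN1: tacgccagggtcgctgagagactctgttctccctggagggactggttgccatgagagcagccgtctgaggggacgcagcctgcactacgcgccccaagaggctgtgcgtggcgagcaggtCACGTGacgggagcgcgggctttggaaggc
POLD2: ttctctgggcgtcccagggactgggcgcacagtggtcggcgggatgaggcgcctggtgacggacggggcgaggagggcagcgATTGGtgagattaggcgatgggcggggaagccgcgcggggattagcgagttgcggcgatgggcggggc
ORC6: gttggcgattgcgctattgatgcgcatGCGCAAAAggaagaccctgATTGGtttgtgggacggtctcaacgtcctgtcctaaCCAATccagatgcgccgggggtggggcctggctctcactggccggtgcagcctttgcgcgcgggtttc
RFC3: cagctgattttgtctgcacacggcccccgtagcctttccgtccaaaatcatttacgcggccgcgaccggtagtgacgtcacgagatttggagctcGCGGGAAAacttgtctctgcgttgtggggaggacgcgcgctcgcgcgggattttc
TIPIN: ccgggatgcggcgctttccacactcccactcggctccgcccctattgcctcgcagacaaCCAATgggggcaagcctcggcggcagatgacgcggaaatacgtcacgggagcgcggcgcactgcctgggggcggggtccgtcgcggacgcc

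MCM7 holds all 3 patterns in this stretch, FEN1 the E-box, POLD2 and TIPIN the CCAAT box, RFC3 the E2F letters, and ORC6 the E2F letters with 2 CCAAT boxes. GINS3, not printed, has E2F letters that cross its start and no E-box, and POLE3 is not among the genes with a match to any of the 3 patterns. A start was found for 43 of the 50 genes, and the first listed start was used, in a window from 250 bases before to 50 after. The 16493 windows of genes in the table, used for comparison, were taken whatever the counts of the gene. The E2F letters were in 21 of the 43 windows (48.8%), against 8.73% of those 16493. CCAAT was in 24 (55.8%, against 36.3%) and the E-box in 7 (16.3%, against 8.80%), the latter being FEN1, GMNN, MCM2, MCM7, MCM8, RPA1 and TIMELESS. A match is a string of letters and not a measured site. The members with E2F letters had a median of 0.28 (log2 fold change) between shCDK12 and shNT and of -0.53 with OHT in shCDK12, and those without had -0.15 and -0.36. Both comparisons used the shCDK12 libraries, on opposite sides, so these medians are not independent. In shCDK12+OHT against shNT+OHT, which used none of those libraries, the medians were -0.20 with the letters and -0.36 without. The members with the letters were thus the lower only with OHT in shCDK12, among these 3 comparisons. The members with an E-box had a median of -0.43 with OHT in shCDK12 and those without -0.46. The medians were 0.44 with it and -0.04 without in shCDK12 against shNT, and 0.14 and 0.03 with OHT in shNT. In shCDK12+OHT against shNT+OHT they were -0.31 and -0.26, and in the interaction -0.67 and -0.55. These values are a description with no test.

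Without OHT, the shRNAs differed in both directions. In the libraries labelled shCDK12, 21 of the 50 genes were higher and 14 lower than in shNT, among them genes whose products sit in the same complex. In that comparison 29.6% of 11718 genes were higher, 32.4% lower and 62% either, so calls were common among all genes. Of all calls 47.7% were higher here and 54.7% with upper-quartile scaling, where 23 members were higher and 11 lower. The median log2 fold change of the members was 0.06, against -0.03 for all genes, with a range from -1.17 in GINS1 to 1.80 in TIPIN, and in 33 of the 35 called (all but GINS4 and ORC6) the groups did not overlap, as in 93.7% of all genes called.

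Of the helicase, MCM2, MCM3, MCM4 and MCM7 were higher and MCM5 (0.25) and MCM6 (0.28) did not pass. MCM2 rose from 93.0, 115 and 87.2 CPM in shNT to the 193, 176 and 193 given above (0.91 ± 0.10, adjusted p = 3.3e-08). The GINS ring was split. GINS3 rose from 106, 97.2 and 81.2 CPM to 289, 273 and 287, 2.94-fold (1.56 ± 0.10, adjusted p = 5.7e-13), and GINS2 rose from 29.5, 30.4 and 24.6 CPM to 55.4, 45.5 and 53.3 (0.84 ± 0.15, adjusted p = 3.3e-05). GINS1 fell from 98.8, 99.7 and 88.2 CPM to 45.9, 43.8 and 38.7, 2.25-fold (-1.17 ± 0.12, adjusted p = 1.1e-08), and GINS4 was called lower (-0.49 ± 0.19, adjusted p = 0.025). The call for GINS4 was not made in 6 of 14 alternatives, DESeq2, upper-quartile scaling and thinning among them, and its value reached -0.16. The fork protection pair was split too, as TIPIN rose from 19.4, 22.4 and 20.5 CPM to 59.8, 80.3 and 77.2 (1.80 ± 0.15, adjusted p = 3.1e-10) and TIMELESS fell from 52.7, 50.7 and 47.1 CPM to 26.6, 20.8 and 26.6 (-1.05 ± 0.15, adjusted p = 2.5e-06). WDHD1, which tethers polymerase alpha to the helicase, fell from 43.6, 43.3 and 50.6 CPM to 23.4, 25.2 and 22.0 (-0.94 ± 0.16, adjusted p = 1.2e-05). Of the genes in this paragraph with a call, only GINS4 had overlapping groups.

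DBF4 rose from 118, 125 and 124 CPM to 251, 306 and 288, 2.31-fold (1.21 ± 0.09, adjusted p = 4.6e-11), while its kinase partner CDC7 had a value of -0.30 that did not pass. POLE3 rose from 152, 156 and 151 CPM to 355, 398 and 435 (1.37 ± 0.09, adjusted p = 2.0e-12). POLE2 rose as well, from 5.86, 5.46 and 4.51 CPM to 13.0, 18.7 and 11.3 (1.43 ± 0.28, adjusted p = 0.00012), at counts too low for a precise size. The 3 members of polymerase delta were all called lower instead, by 0.45 (POLD1), 0.40 (POLD2) and 0.53 (POLD3) on the log2 scale, and the call was not made in 6 of 14 alternatives for POLD1, among them DESeq2, upper-quartile scaling and 4 of the 6 fits that left out a library, and in 2 of 14 for POLD2. Of the clamp and its loader, PCNA (0.75) and RFC3 (0.82) rose and RFC1 (-0.32), RFC4 (-0.54) and RFC5 (-0.52) fell. RPA2 fell from 96.7, 78.3 and 70.7 CPM to 47.7, 43.0 and 35.9 (-0.97 ± 0.14, adjusted p = 1.8e-06), whereas RPA3 rose (0.67) and RPA1 (-0.23) did not pass, so the 3 genes of the single-strand binding complex differed.

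In the ORC, ORC4 rose from 27.9, 29.5 and 25.1 CPM to 38.7, 57.4 and 45.9 (0.78 ± 0.16, adjusted p = 0.00019) and ORC3 fell from 21.1, 13.1 and 13.0 CPM to 8.57, 6.61 and 7.59 (-1.09 ± 0.26, adjusted p = 0.00096), with no overlap in either. GMNN rose (0.60 ± 0.14, adjusted p = 0.00084), CDT1 (-0.10) and ORC1 (-0.17) did not pass, and CDC6 (0.22 ± 0.08), CDC45 (0.47 ± 0.17) and FEN1 (0.25 ± 0.09) were called higher. LIG1 was called lower (-0.40 ± 0.14, adjusted p = 0.016). These 4 calls were weak. Of 14 alternatives, CDC6 did not pass in 5 (without each shNT library, without shCDK12 replicate 3 and in the joint fit), FEN1 in 5, CDC45 in 4 (DESeq2 and 3 fits that left out a library, adjusted p up to 0.16) and LIG1 in 4 (upper-quartile scaling and thinning among them, adjusted p up to 0.28).

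**Figure D3:**
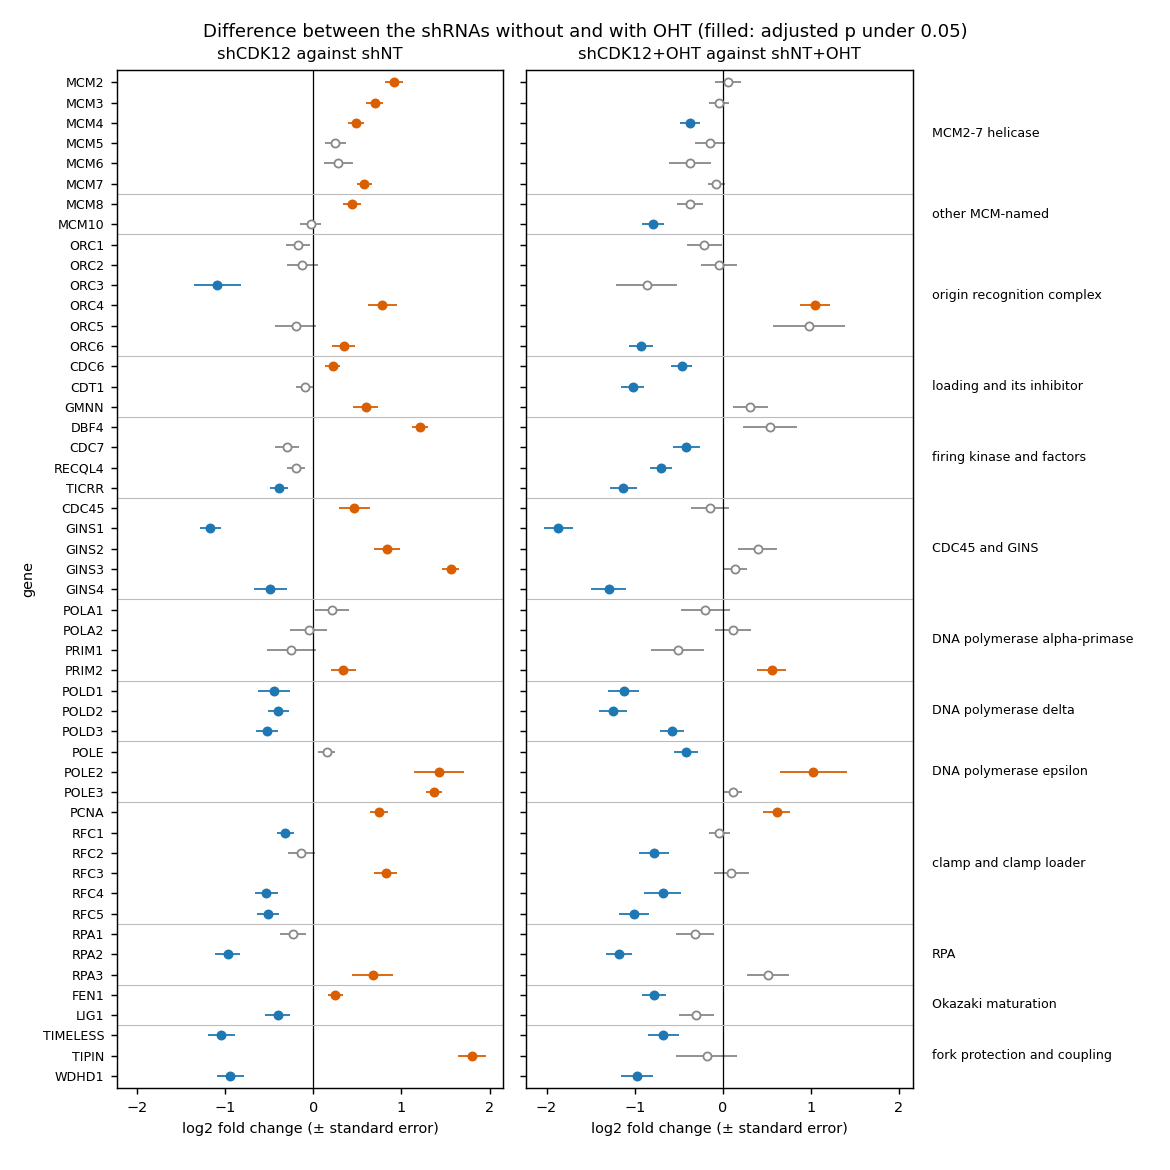
Log2 fold change between the shRNAs, shCDK12 over shNT (x axis, bars are the standard error) of each of the 50 genes (y axis, by role), without OHT on the left and with OHT on the right, filled where the adjusted p was under 0.05, orange for higher and blue for lower. On the left 21 points are orange and 14 blue, on the right 4 and 21, and polymerase delta is blue on both sides.

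With OHT in both groups, the libraries labelled shCDK12+OHT had 21 of the 50 genes lower than shNT+OHT and 4 higher (ORC4, PCNA, POLE2 and PRIM2). In that comparison 21.6% of 11668 genes were lower, 23.8% higher and 45.4% either. Of all calls 52.4% were higher here and 47.5% with upper-quartile scaling. The median of the members was -0.34, against 0.05 for all genes, and none of the 25 called overlapped between its groups, as held for 97.0% of all genes called. This comparison and the one without OHT share no library. Of the 14 genes lower without OHT, 11 were lower with it, which is 11 of the 21 lower here. Over all genes, 33.0% of those lower without OHT were lower with it, and these were 49.8% of those lower with it. The 4 genes called higher here were all called higher without OHT, out of 21, though PRIM2 only in 6 of 14 alternatives there. Over all genes 35.4% of those higher without OHT were higher with it, against 19.0% of the members. In the other direction, 44.2% of all genes higher with OHT were higher without it. CDC6, FEN1, MCM4 and ORC6, 19.0% of the 21, were called higher without OHT and lower with it, near the 14.9% over all genes. The rise without OHT was not called in 5 of 14 alternatives for CDC6, 5 for FEN1 and 4 for ORC6, whose groups overlapped there, and was called in all 14 for MCM4.

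GINS1 had the lowest value, with 121, 80.0 and 103 CPM in shNT+OHT against 28.0, 29.6 and 25.4 in shCDK12+OHT (-1.87 ± 0.16, adjusted p = 1.7e-05), a 3.65-fold fall. GINS4 stood at 48.6, 37.9 and 34.5 CPM against 14.1, 17.2 and 17.6 (-1.30 ± 0.20, adjusted p = 0.00049), while GINS2 (0.40) and GINS3 (0.14) did not pass. POLD2 stood at 163, 106 and 128 CPM against 53.0, 55.6 and 58.8 (-1.25 ± 0.16, adjusted p = 0.00014). POLD1 (-1.12) and POLD3 (-0.58) were lower too, so the 3 members of polymerase delta were again called lower, each without overlap, while POLD4, the other delta gene measured, did not pass (-0.09). TICRR, which helps CDC45 onto the helicase, stood at 229, 159 and 162 CPM against 83.3, 83.0 and 83.6 (-1.13 ± 0.15, adjusted p = 0.00021). RPA2 stood at 70.2, 95.7 and 93.7 CPM against 36.1, 39.9 and 35.9 (-1.18 ± 0.15, adjusted p = 0.00016), and CDT1 at 138, 122 and 121 CPM against 68.1, 59.9 and 57.3 (-1.02 ± 0.13, adjusted p = 0.00015). In CPM the shCDK12+OHT libraries lay closer together than the shNT+OHT libraries in each, but relative to its lower level not for CDT1.

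ORC4 stood at 21.0, 24.7 and 27.5 CPM in shNT+OHT against 51.3, 47.1 and 50.8 in shCDK12+OHT (1.04 ± 0.17, adjusted p = 0.00062), and PCNA at 122, 186 and 175 CPM against 220, 262 and 241 (0.61 ± 0.15, adjusted p = 0.0075). The shCDK12+OHT libraries were the higher in both, without overlap. PRIM2, the large primase subunit, was called higher (0.55 ± 0.16, adjusted p = 0.017), but not without shCDK12+OHT replicate 2 or 3, and not after thinning, where its value was 0.29 (adjusted p = 0.33). POLE2 (1.03 ± 0.38, adjusted p = 0.045) had 7 counts in its shallowest library, and its call was not made in 9 of 12 alternatives, among them DESeq2, both other scalings and the replicate block (0.53 to 1.63 on the log2 scale over the 12). Of the helicase only MCM4 was called (-0.37 ± 0.12, adjusted p = 0.023), and the other 5 lay between -0.37 and 0.06. The call for MCM4 was not made without any 1 of the shCDK12+OHT libraries (adjusted p up to 0.13).

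**Figure D4:**
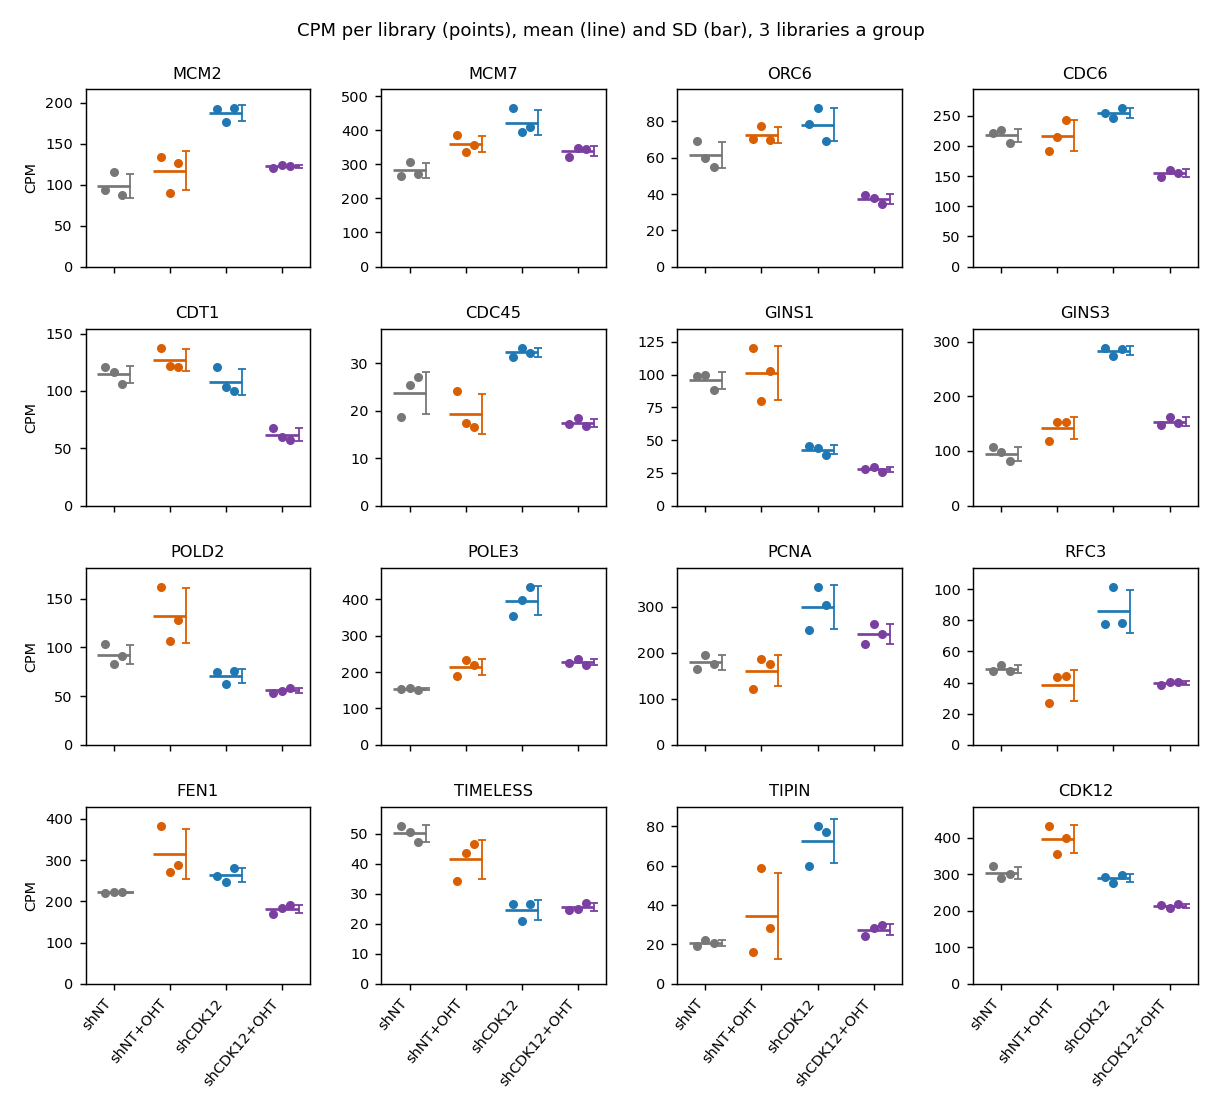
CPM (y axis, from 0) of 15 of the genes and of CDK12 in each library of the 4 groups (x axis), with points for libraries, a line for the mean of 3 and a bar for the SD. TIPIN, GINS3 and RFC3 peak in shCDK12, GINS1 and TIMELESS are low in both groups with the CDK12 shRNA, and POLD2 and FEN1 have their highest mean in shNT+OHT.

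Across the 4 groups the members took several orders. The MCM2-7 genes summed to 766 ± 52.8 CPM (SD, n = 3) in shNT, 898 ± 86.7 in shNT+OHT, 1161 ± 63.1 in shCDK12 and 822 ± 26.6 in shCDK12+OHT, so that shCDK12 stood apart and the libraries of the other 3 groups overlapped. GINS1, TIMELESS, WDHD1 and RPA2 were instead low in both groups with the CDK12 shRNA and near each other in both with shNT. MCM5, ORC2, ORC5, POLA1, POLA2, PRIM1 and RPA1 passed in none of the 4 comparisons between groups. In those comparisons their standard errors ran from 0.095 on the log2 scale (MCM5) to 0.45 (ORC5). MCM5 was called in 3 of 14 alternatives in shCDK12 against shNT and in 2 of 14 in shCDK12+OHT against shCDK12. ORC5 was called in 4 of 13 in shCDK12+OHT against shNT+OHT. POLA1 was called in 1 of 13 in shCDK12+OHT against shCDK12. RPA1 was called in 1 of 14 in shCDK12 against shNT and in 1 of 14 in shCDK12+OHT against shNT+OHT.

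Neighbouring gene lists moved in part with the members. In shCDK12+OHT against shCDK12, all 16 genes of a G2/M list were lower (median -0.83), with KIF20A (-1.36), a mitotic kinesin, and PLK1 (-1.24), a mitotic kinase, the lowest. Their summed level was 3444 ± 244 CPM in shNT, 3709 ± 298 in shNT+OHT, 3523 ± 208 in shCDK12 and 2036 ± 88.2 in shCDK12+OHT, and MKI67 was the most abundant of them. Of 31 other replication genes (clamp unloaders, chromatin assembly, ORC partners and the like), 30 were tested in that comparison, 17 were lower and 1 higher, with a median of -0.46. The 1 higher was POLD4 (1.13), the small subunit of polymerase delta, which had fallen furthest of that list in shCDK12 against shNT (-2.17). Of 15 genes for G1/S entry and nucleotide supply, 7 were lower and 1, CCND1, higher (0.57), with CCNA2 (-1.01) and TYMS (-0.72) the lowest. Whether the share of cells in each phase had a part in the falls of the members was not tested.

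**Figure D5:**
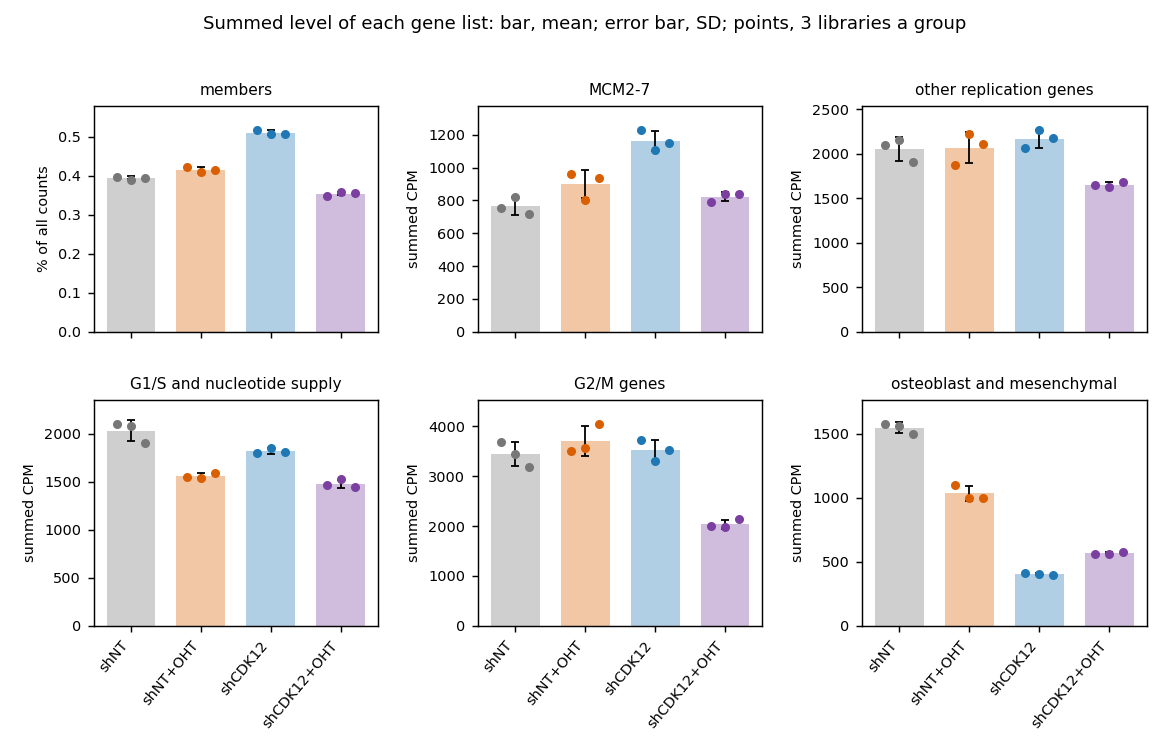
Summed level of 6 gene lists in the 4 groups (x axis), as a percentage of all counts for the 50 members and as CPM for the others (y axes, from 0), with bars for the mean, error bars for the SD and points for the 3 libraries. The members, the G2/M genes, the G1/S genes and the other replication genes have their lowest mean in shCDK12+OHT. The osteoblast and mesenchymal genes are highest in shNT.

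The lists were also counted in the other comparisons. With OHT in shNT, 1 G2/M gene was higher (KIF20A, 0.61), 4 of the G1/S genes were lower with CCNE2 (-1.32) and CCND1 (-1.09) the lowest, and of the other replication genes 1 was higher (DBF4B, 0.81) and 2 lower (RECQL, -0.90, and CLSPN, -0.55). In shCDK12 against shNT, 7 G2/M genes were higher and 2 lower, 6 G1/S genes higher and 4 lower, and 8 of the other replication genes higher and 8 lower. In shCDK12+OHT against shNT+OHT, 12 G2/M genes were lower and none higher (median -0.87), 4 G1/S genes were lower and 2 higher (median -0.13), and 12 of the other replication genes were lower and 2 higher (median -0.39), so that the members' median of -0.34 was near that of the other replication genes. In the interaction, 15 of the 16 G2/M genes were called lower, 6 G1/S genes were lower and 3 higher (median -0.08), and 9 of the other replication genes were lower and 3 higher (median -0.38). These lists overlap the members in no gene, and their part in the members' values was not tested.

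In the RefSeq annotation 13 of the 50 genes overlap another gene of the table, among them MCM7 (AP4M1 and the microRNA genes MIR25, MIR93 and MIR106B, which lie inside it), ORC1 (PRPF38A), PCNA (PCNA-AS1), POLE3 (C9orf43) and TIPIN (SCARNA14). The kit keeps strand, but whether strand was used in counting is not stated, so reads of such pairs may not be separated. EU-labelled RNA includes introns, and whether intronic reads were counted is also not stated.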

How the data were processed

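The authors deposited a table of raw counts for 23434 genes, listed by gene identifier, in 12 libraries, without normalization. The submitters' processing notes name STAR 2.7.5c, featureCounts 1.4.5-p1 and hg19, with no settings. Symbols were matched by identifier to RefSeq (GRCh38.p14) for 23284 genes, and the 150 without a symbol stayed in the tests. Tests were run in edgeR 4.0.16 (R 4.3.3) with TMM scaling and the quasi-likelihood test, with Benjamini-Hochberg adjustment over all genes tested and a threshold of 0.05. A gene entered a fit if its normalized counts averaged over 32 in the libraries fitted. Each comparison of 2 groups used its 6 libraries, and the interaction all 12. The code was tested on simulated data. Total counts per library ran from 1251695 to 10447836, and their number limits the precision of low genes. No library of a group matched another within sampling noise.

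The members and lists were chosen with earlier results of these data known. Values are given for the MCM2-7 genes, ORC1, CDC6, CDT1, GMNN, CDC45, PCNA and LIG1, for up to 5 called members with the largest rises and 5 with the largest falls in each comparison, for CDK12 and MYC, and for up to 2 genes of each other list in each direction. Other members are named by role and were chosen after their values were seen. Alternatives were DESeq2 1.42.0, upper-quartile and median-of-ratios scaling, 2 other filters, a replicate block, thinning to the smallest library, a joint fit and leaving out each library.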

Additional observations from a re-analysis of the deposited data

Results flagged for a closer look

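The response to OHT differed between the shRNAs by a direct test, the interaction term over all 12 libraries, for 24 of the 50 genes (48.0%, near the 45.2% of all genes). Of these 23 were called lower with shCDK12 and 1 higher, where 19.6% of all genes were called lower and 25.6% higher. Chosen by size or by the fixed list of names, the genes whose response was lower with shCDK12 were TIPIN (-1.97 on the log2 scale), GINS3 (-1.44), ORC6 (-1.29), POLE3 (-1.28), FEN1 (-1.05), CDT1 (-0.95), MCM4 (-0.88), MCM2 (-0.88), MCM3 (-0.76), CDC6 (-0.71) and MCM7 (-0.67). GINS3, POLE3, FEN1 and MCM7 also rose with OHT in shNT, a rise that is part of the interaction, so their values are given as a description. ORC5 was called with a higher response (1.17) and had between 3.19 and 17.3 CPM in shNT+OHT. In the same test 15 of 16 G2/M genes were called lower.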

How the results depend on the processing

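No call of a member changed direction under the alternatives run (single genes of the other lists were not rerun), and of 1804 checks on the 121 calls of members 169 no longer passed the threshold. The median log2 fold change of the members moved by more than the spread between replicates under these settings: for shNT+OHT against shNT to 0.12 after thinning, for shCDK12 against shNT to 0.15 with upper-quartile scaling, for shCDK12+OHT against shCDK12 to -0.49 with upper-quartile scaling and -0.53 after thinning, for shCDK12+OHT against shNT+OHT to -0.40 with DESeq2, -0.41 with median-of-ratios scaling and -0.42 after thinning, and for the interaction to -0.58 with DESeq2 and with median-of-ratios scaling, -0.63 with upper-quartile scaling and -0.68 after thinning. The cause was not tested. Leaving out each library in turn gave medians of 0.012 to 0.14, 0.047 to 0.15, -0.49 to -0.40, -0.44 to -0.30 and -0.58 to -0.44 in that order, and 0 to 7, 28 to 36, 25 to 33, 18 to 29 and 20 to 27 members called. The 5 members called with OHT in shNT became 0 when any shNT library was left out and 1 when shNT+OHT replicate 3 was. Without shNT+OHT replicate 1 or 2, fits of the same size called 6 and 7 members, the 5 among them.

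Over all genes, the calls for shNT+OHT against shNT went from 1782 to 751, 670 and 818 without shNT replicate 1, 2 and 3, to 1101 without shNT+OHT replicate 3 and to 3256 in the joint fit. Without shNT+OHT replicate 1 and 2 there were 2523 and 2365. In the main fit 52.2% of the calls were higher, against 62.3% with DESeq2 and after thinning. Calls for shCDK12+OHT against shNT+OHT went from 5298 to 3520 without shCDK12+OHT replicate 2 and 3527 without replicate 1. Thinning to 1251695 counts gave 4491 calls against 7265, 3214 against 6128, 3170 against 5298 and 3194 against 5289 in the other comparisons. Fewer genes were tested after thinning. The shares of tested genes called were 59.7% against 62.0%, 43.1% against 48.9%, 42.9% against 45.4% and 42.8% against 45.2% in that order. Upper-quartile scaling moved the median of all genes in the interaction from 0.10 to -0.02, so values there shift by that amount.

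With the replicate number as a block, 4, 35, 32, 24 and 24 members were called, with MCM7 no longer called in shNT+OHT against shNT. In shCDK12+OHT against shNT+OHT 23 of the 25 calls were shared, with CDC7 and POLE2 no longer called. To look for pairing, the mean of its group was taken from each library, and libraries of different groups were correlated on what was left. Those with the same number correlated at -0.092 to 0.32 (3 of 18 pairs above 0.1) and those with different numbers at -0.36 to 0.0998 (0 of 36). In 19 of 36 comparisons with another group, a library correlated best with its own number. If the numbers carried no information, 1 in 3 would do so. Since not every pair was above 0.1, the numbers were not taken to pair the libraries, and a partial pairing is not shown to be absent. Depth limits genes with low counts, such as POLE2, ORC3, ORC5, PRIM1 and RPA3. With no mouse rows, total output cannot be seen, and phase shares, strand use and the knockdown cannot be checked here.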
